A study of Gallus gallus with 16 samples.

Results

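RNA sequencing libraries of COVCAR cells at 1 mM metformin were compared with those at 0.5 mM in the same 4 primary lines, C5, C7, C9 and C11. The comparison uses the 8 of 16 libraries of the series that carry these doses, 4 per dose, with the libraries of 1 line paired. The libraries without metformin are not used, and those at 2 mM serve only to follow the genes 1 step further. COVCAR cells are chicken ovarian cancer cells grown from ascites, the fluid of the body cavity, of Leghorn hens past their peak of egg laying. The labels give the tumor as ovarian endometrioid adenocarcinoma.

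The 1 mM group holds 1 library of each line after 24 h in 1 mM metformin, and the 0.5 mM group holds 1 library of each line after 24 h in 0.5 mM metformin. Both groups were kept in serum-free X-VIVO 20 medium with 5 µg/ml bovine insulin and 20 ng/ml human epidermal growth factor, in plates to which cells do not attach, so cells and floating spheres were harvested together. C5, C7 and C9 were at passage 3 and C11 at passage 2. Each line comes from 1 hen, which makes the line the replicate (n = 4 per dose). The methods of the study mention triplicate treatments, and how these became 1 library is not stated there. The library of C7 at 1 mM is missing from the authors' own table of that dose, without a given reason, and is used here.

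Metformin is a biguanide used against type 2 diabetes. It is known to inhibit complex I of the mitochondrial respiratory chain and to raise the activity of AMPK, the kinase that senses low cellular energy. AMPK phosphorylates and inhibits ACACA, the enzyme that commits carbon to fatty acids. The genes of fatty acid and sterol synthesis are transcribed under SREBP factors, which are held in the endoplasmic reticulum by INSIG proteins while sterols are plentiful.

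Libraries at 1 mM held 35553462 to 42531887 counts and those at 0.5 mM held 35403643 to 38257947, and 15769 to 16903 genes had a count in a library. Across 10691 well-measured genes, the slope of log2 level, centred per gene, on log2 exonic length in C5, C7, C9 and C11 was −0.22, −0.16, 0.22 and −0.14 at 1 mM, against −0.14, 0.16, 0.18 and 0.094 at 0.5 mM. Long genes were therefore lower at 1 mM relative to short ones in C7 and C11, whose slope turned its sign between the doses, while C5 and C9 kept theirs. The slope changed by −0.33 in C7 and −0.23 in C11. In C5 it also fell, by less (−0.075), and in C9 it changed by 0.033, so C5 and C9 are not free of it. What set this slope was not tested, and in C7 and C11 it cannot be told apart from the dose. Values from C5 and C9 alone, and slope-adjusted values, which come from a fit with this slope as a covariate, are given beside the results they move most. The covariate was fitted for each gene without use of the gene's length. Because the slope changed mainly in C7 and C11, the covariate can take up any difference of these lines from C5 and C9. Slope-adjusted values are therefore no correction for gene length. They are also no check separate from the values of C5 and C9 alone.

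**Figure D1:**
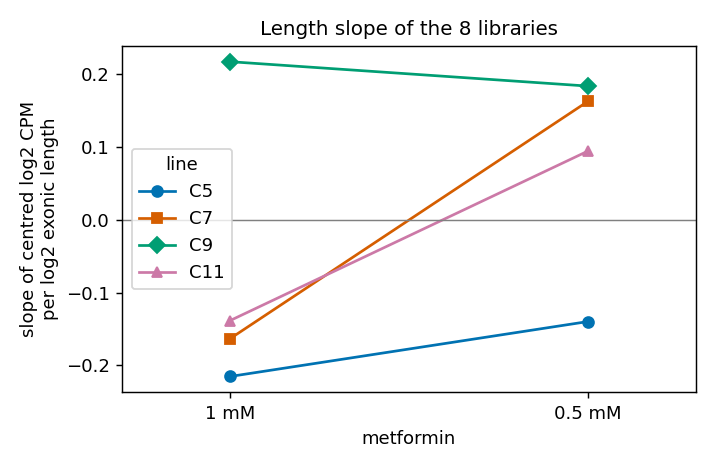
Slope of centred log2 CPM on log2 exonic length (y axis, log2 CPM per log2 base of length) in the 1 mM and 0.5 mM library of each line, with a line joining the 2 libraries of 1 cell line. C5 and C9 stay on their side of 0, and C7 and C11 lie at −0.16 and −0.14 at 1 mM against 0.16 and 0.094 at 0.5 mM.

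The labelled tumor type was set against marker genes. KRT7, a keratin of simple epithelia, averaged 514 CPM (the count scaled to a common library size) at 1 mM and 488 CPM at 0.5 mM, whereas EPCAM, CLDN3, ESRP1 and ESRP2, which define many epithelia, had at most 17, 4, 6 and 4 counts in any of the 8 libraries. Other epithelial markers were present at low levels, with up to 1279 counts for KRT18, 377 for ELF3, 248 for CDH1 and 157 for WFDC2. The summed level of 11 fibroblast markers lay between 8423 and 61190 CPM at 1 mM and between 11542 and 67433 CPM at 0.5 mM. The summed level of 11 epithelial markers was 344 to 807 CPM at 1 mM and 333 to 823 CPM at 0.5 mM. By summed level fibroblast markers stood above epithelial ones at both doses, mostly from 3 collagen genes. COL1A1, COL1A2 and COL3A1 averaged 12801, 8272 and 4055 CPM at 1 mM, against 11919, 10600 and 7127 CPM at 0.5 mM. KRT8, KRT19, CLDN4, CLDN7, GRHL2, MUC16, PAX8 and OVAL, also planned as epithelial markers, were not found by symbol, so their levels are not known. In such bulk libraries, fewer cells of a type and less RNA per cell cannot be told apart.

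Of 13378 genes tested with the line as a block, edgeR's quasi-likelihood test called 0% between 1 and 0.5 mM after adjustment, with a smallest adjusted p of 0.309. At an unadjusted p under 0.05 there were 2134 genes, 948 of them higher at 1 mM (7.09% of the genes tested) and 1186 lower (8.87%). DESeq2 with the same block called 434 genes (3.15% of those with an adjusted p), 165 higher and 269 lower. Of the 434, 403 moved the same way in all 4 lines, as did 3692 of the 13378 genes tested. A fit with the line as a block favors such genes, so this share does not test the calls. Without the block, DESeq2 called 6 and edgeR 0. The DESeq2 calls depended on the lines, since there were 801 without C5, 60 without C7, 1444 without C9 and 24 without C11, and 9 with the length slope as a covariate. Many genes are therefore described below by their level in every line, and others by fold change and DESeq2 result only. In the edgeR fit with the block over all 4 lines, none of them was called.

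Genes of lipid synthesis had lower levels at 1 mM. In the cholesterol list, which holds the enzymes of the mevalonate and sterol pathway with their regulators, all 19 tested genes had a negative estimate (median log2 fold change −0.86, against −0.0027 over all genes). Of these, 11 of 19 were lower at an unadjusted p under 0.05, against 8.87% of all genes, and 11 of 19 were lower in all 4 lines, against 13%. DESeq2 called 6 of 19 as lower, against 2% of the genes edgeR tested. For 4 of 19 every library at 1 mM lay below every library at 0.5 mM, against 0.68% of all genes.

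HMGCS1 (ENSGALG00000014862, GRCg6a chromosome Z, 13647830 to 13665258), the cytosolic HMG-CoA synthase of the mevalonate route, had 107, 52.2, 101 and 64.6 CPM at 1 mM in C5, C7, C9 and C11, against 213, 180, 289 and 388 CPM at 0.5 mM. The groups did not overlap, and C11 had both the highest level at 0.5 mM and the largest difference. The means were 81.1 ± 26.8 CPM at 1 mM and 268 ± 92.4 CPM at 0.5 mM (SD, n = 4 lines each). The log2 fold change was −1.71 (standard error 0.267, edgeR adjusted p = 0.309, DESeq2 adjusted p = 7.82e-06). HMGCS1 was also called by DESeq2 without the block and with each line left out. In C5 and C9 alone its log2 fold change was −1.29, and with the length slope as a covariate −1.40.

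INSIG1 (ENSGALG00000017394, chromosome 2, 7910368 to 7918977), the sterol-dependent anchor of SREBP and itself a target of it, had 129.8, 55.9, 43.1 and 57.8 CPM at 1 mM, against 248, 73.5, 192 and 211 CPM at 0.5 mM. It was lower in every line, least in C7, whose 0.5 mM level was already below that of C5 at 1 mM. STARD4, a carrier of cholesterol between membranes, had 28.4, 15.8, 13.3 and 20.0 CPM at 1 mM, against 45.0, 29.7, 51.0 and 78.5 CPM at 0.5 mM. These groups did not overlap. DESeq2 called both as lower (INSIG1, log2 fold change −1.33, adjusted p = 0.0122, and STARD4, log2 fold change −1.36, adjusted p = 0.00361).

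The later enzymes of the route are named here because of their values. NSDHL, a demethylating enzyme of the sterol ring, was called lower by DESeq2 (log2 fold change −1.13, adjusted p = 0.0336). SQLE, LSS, CYP51A1, MSMO1 and DHCR7 had log2 fold changes of −0.88, −1.08, −0.86, −0.90 and −0.71, at DESeq2 adjusted p-values between 0.0629 and 0.112. DHCR7 was at −0.45 in C5 and C9 alone. SQLE and LSS make and close the sterol ring precursor, and the other 3 act on the ring. Further down the list the estimates became small, to −0.19 for HSD17B7.

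**Figure D2:**
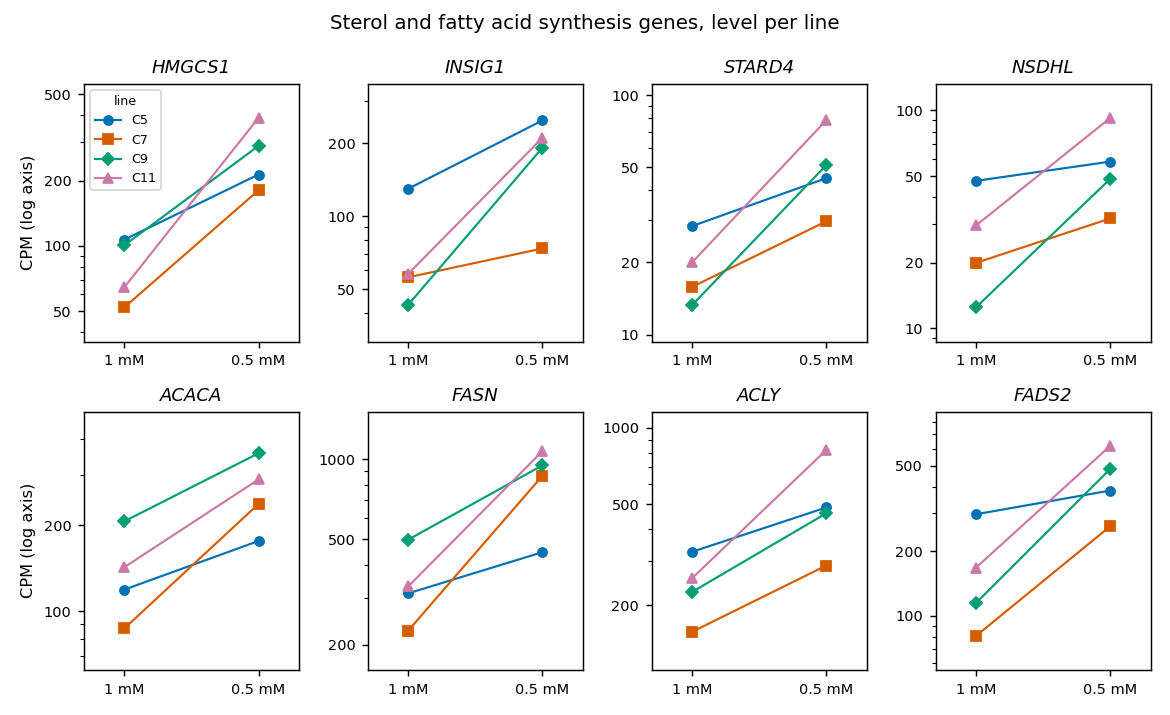
Level (y axis, CPM on a log axis) of 8 genes of sterol and fatty acid synthesis at 1 mM and 0.5 mM, with 1 line joining the 2 libraries of each cell line. Every joined pair is lower at 1 mM, and HMGCS1 and STARD4 have no overlap between the doses.

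The size of the sterol difference was unlike among the lines. The list's median log2 fold change was −0.26, −0.27, −1.52 and −1.42 in C5, C7, C9 and C11, and 17, 12, 19 and 19 of the 19 genes were lower in these lines. The summed level of the 19 genes was 4448, 2454, 1528 and 2404 CPM at 1 mM, against 5261, 2769, 4467 and 5728 CPM at 0.5 mM. In C9 and C11 the sum at 1 mM was thus 0.342 and 0.420 of that at 0.5 mM, and in C5 and C7 it was 0.845 and 0.886. In C7 the remaining 7 genes were higher at 1 mM, among them FDFT1 (log2 fold change 0.20), SC5D (0.70) and HSD17B7 (0.98), also named after their values were seen.

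The sterol list was also taken in C5 and C9, the lines whose length slope kept its sign. The part of the slope in the sterol genes was not tested. In C5 and C9 alone, a fit on 4 libraries with 1 residual degree of freedom per gene, edgeR called 16 of the 19 genes as lower and none as higher, against 0.783% and 0.403% of all genes tested there. The same genes in C5 differed far less than in C9, with a list median of −0.26 in C5 and −1.52 in C9. In C7 and C11 alone edgeR called only HMGCS1 of the 19, where 4.2% of all genes were called lower. With the length slope as a covariate over all 8 libraries the list's median was −1.25. In that fit 17 of 19 were lower at an unadjusted p under 0.05, against 190 of all 13378 genes, and none was called after adjustment.

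The fatty acid list showed the same direction. Of its 12 tested genes, 6 were lower at an unadjusted p under 0.05 (8.87% of all genes) and 8 were lower in all 4 lines (13% of all genes), with a median log2 fold change of −0.71. DESeq2 called 5 of 12 as lower (2% of all genes), namely ACACA, FASN, ACLY, FADS2 and SCD, the last named because of its values. The medians by line were −0.33, −0.74, −0.71 and −1.08 in C5, C7, C9 and C11. The list's median was −0.62 with the length slope as a covariate.

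ACLY, which makes cytosolic acetyl-CoA from citrate for both routes, had 325, 157, 226 and 256 CPM at 1 mM, against 486, 287, 461 and 819 CPM at 0.5 mM (log2 fold change −1.03, DESeq2 adjusted p = 0.00543). ACACA (ENSGALG00000005439, chromosome 19, 8593460 to 8693146), the acetyl-CoA carboxylase, had 119, 87.1, 206 and 142 CPM at 1 mM, against 176, 237, 356 and 288 CPM at 0.5 mM. FASN, the fatty acid synthase, had 313, 227, 498 and 332 CPM at 1 mM, against 447, 867, 949 and 1074 CPM at 0.5 mM. Both were lower in all 4 lines, by most in C7, and their groups overlapped because the lines differ in level. Their log2 fold changes were −0.94 for ACACA (standard error 0.17, DESeq2 adjusted p = 0.00192) and −1.26 for FASN (standard error 0.267, DESeq2 adjusted p = 0.0024). FASN was at −0.76 both in C5 and C9 alone and slope-adjusted.

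Of the desaturases, FADS2, which acts on polyunsaturated fatty acids, had 297, 80.6, 115 and 168 CPM at 1 mM, against 383, 261, 483 and 619 CPM at 0.5 mM (log2 fold change −1.51, DESeq2 adjusted p = 0.00115). SCD, which makes monounsaturated fatty acids, had a log2 fold change of −1.18 (DESeq2 adjusted p = 0.0225). ELOVL1, an elongase of very long chains, was the only member higher in all 4 lines (log2 fold change 0.27). SREBF1 mRNA, which encodes the SREBP factor tied to fatty acid genes, had a log2 fold change of −0.068 (standard error 0.235), and SREBF2 mRNA, which encodes the one tied to sterol genes, −0.44 (standard error 0.249), at unadjusted edgeR p-values of 0.783 and 0.126. Part of the SREBF2 exons, 463 of 4472 bases, is shared with CCDC134, and their reads are counted for both genes.

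AACS, the cytosolic enzyme that returns acetoacetate to lipid synthesis, stands in neither list and was among the lower genes with the smallest p-values. It had 99.8, 44.4, 61.9 and 53.3 CPM at 1 mM, against 161, 103, 179 and 178 CPM at 0.5 mM, with no overlap. Its log2 fold change was −1.29 (standard error 0.201, DESeq2 adjusted p = 0.000151). It shares 71 of its 3449 exonic bases with TMEM132B.

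**Figure D3:**
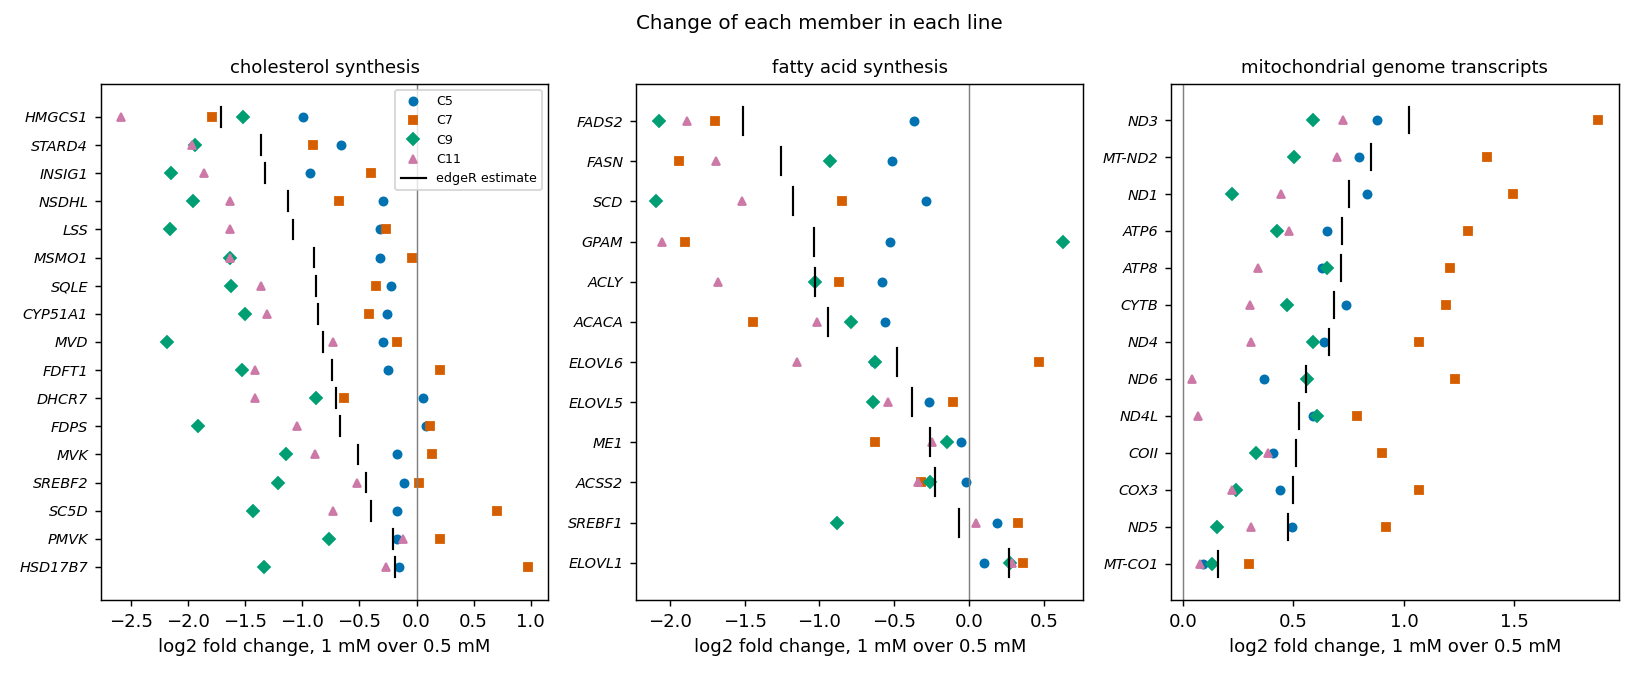
Log2 fold change of 1 mM over 0.5 mM (x axis) of the reported members of the cholesterol, fatty acid and mitochondrial genome lists (rows), with a symbol per cell line and a black bar at the edgeR estimate. Sterol genes lie left of 0 mainly in C9 and C11, and the mitochondrial transcripts lie right of 0 in all 4 lines, farthest in C7.

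The 13 protein-coding transcripts of the mitochondrial genome, which encode core subunits of complexes I, III, IV and V, were higher at 1 mM in every line, 13 of 13 against 14.6% of all genes. Of these, 9 of 13 had an unadjusted p under 0.05, against 7.09%, and DESeq2 called 3 of 13 as higher, against 1.06%. They made up 6.56, 6.28, 4.17 and 5.63% of all counts at 1 mM, against 5.14, 3.53, 3.33 and 4.98% at 0.5 mM. The share was higher at 1 mM within each line, while the groups overlapped. All 13 come from few precursor transcripts and are not independent of each other.

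ND3, a complex I subunit (mitochondrial genome, 10776 to 11126), had 447, 687, 286 and 401 CPM at 1 mM, against 243, 187, 190.5 and 242 CPM at 0.5 mM, with no overlap. MT-ND2, another complex I subunit, had 1536, 1562, 732 and 1188 CPM at 1 mM, against 885, 601, 516 and 732 CPM at 0.5 mM. Their log2 fold changes were 1.02 (standard error 0.253, DESeq2 adjusted p = 0.0228) and 0.85 (standard error 0.207, DESeq2 adjusted p = 0.019), and 0.58 and 0.54 slope-adjusted. MT-CO1, the catalytic subunit of complex IV and the gene with the most counts of the 13, differed little, with a log2 fold change of 0.16 (standard error 0.267), 0.076 in C5 and C9 alone. It is named because of its values.

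The list's median log2 fold change was 0.63, 1.19, 0.47 and 0.31 in C5, C7, C9 and C11, and 0.66 over the 4 lines. It was 0.42 with the length slope as a covariate, with 13 of 13 estimates higher. In that fit 0 of 13 had an unadjusted p under 0.05. Of all 13378 genes, 110 were higher and 190 lower at that level there. ATP8 and ND4L, both among the 4 smallest p-values of the list, share 10 and 7 bases with ATP6 and ND4.

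Nuclear genes for the same organelle differed far less. Of 33 nuclear complex I subunits 2 were higher at an unadjusted p under 0.05 and none lower (7.09% and 8.87% of all genes). Their median log2 fold change was 0.16. For 26 nuclear subunits of complexes II to V the counts were 0 and 0 (median 0.17), and for 68 mitochondrial ribosomal proteins 2 and 0 (median 0.11). The 65 cytosolic ribosomal protein genes had a median of 0.24, with none at an unadjusted p under 0.05. That value came with C7, in which their median was 0.85, and was 0.028 without C7. With the length slope as a covariate the medians were −0.032, 0.0045, 0.060 and −0.086 in this order.

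Transcripts of the energy pathways tied to metformin passed an unadjusted p under 0.05 at shares near those of all genes (7.09% higher and 8.87% lower) in most lists. Of 14 genes of AMPK and its regulators 1 was lower at an unadjusted p under 0.05 and none higher (median −0.069). Of 20 genes of glycolysis and glucose transport 2 were lower (median −0.10), and of 20 genes of fatty acid oxidation 1 was lower (median −0.030). The integrated stress response, which raises ATF4 targets when translation is restrained, had 1 of 18 higher (median 0.12), and of 17 tRNA synthetases 1 was lower (median 0.054). Of 10 serine and one-carbon enzymes 2 were lower, with a median of −0.43 that was −0.84 in C11.

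**Figure D4:**
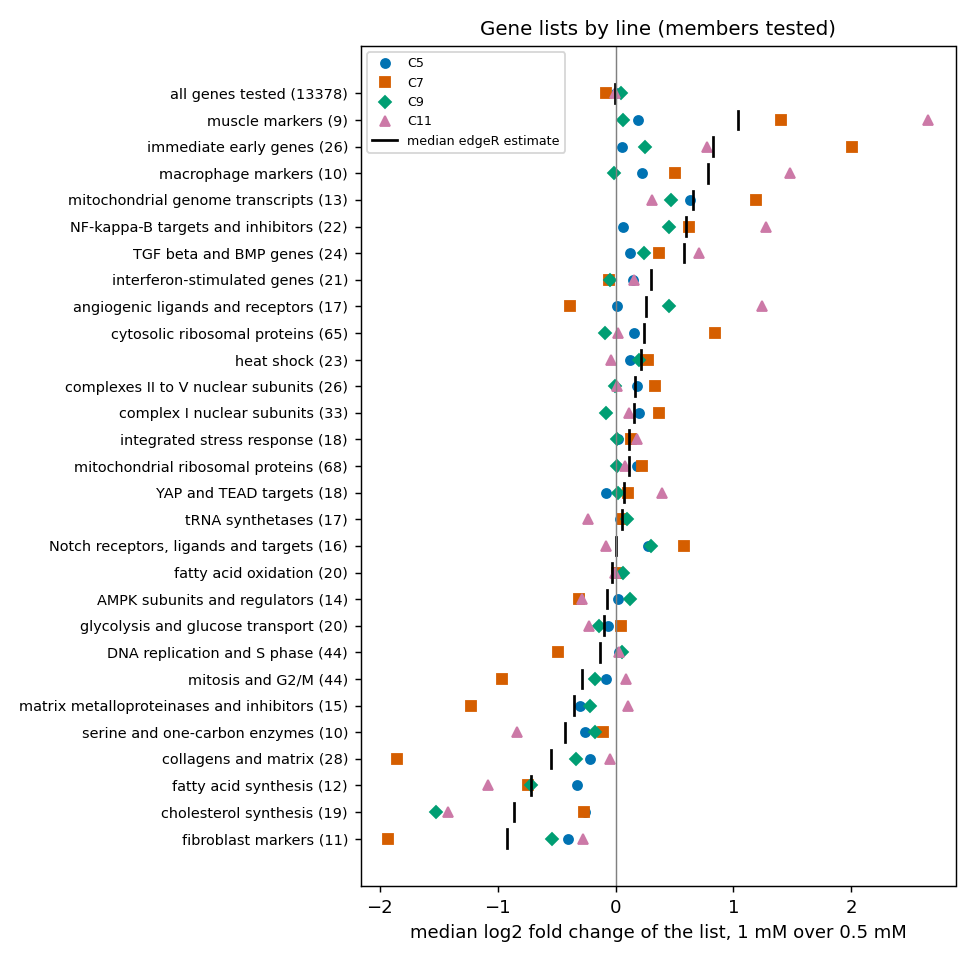
Median log2 fold change of 1 mM over 0.5 mM (x axis) of the genes of each list (rows, with the number tested), by line (symbols), with a black bar at the median edgeR estimate. The cholesterol list lies at −1.52 and −1.42 in C9 and C11, and the immediate early genes at 2.01 in C7 against 0.055 in C5.

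Immediate early genes, which growth factors or stress induce within minutes and many of which code for transcription factors, were mostly higher at 1 mM. Of 26 tested, 10 were higher at an unadjusted p under 0.05 and 1 was lower (7.09% and 8.87% of all genes), with a median log2 fold change of 0.83. DESeq2 called 4 of 26 (1.06% of all genes), NR4A1, NR4A2, NR4A3 and CYR61, all higher. The list's median was 0.055, 2.01, 0.25 and 0.78 in C5, C7, C9 and C11, and the summed level at 1 mM was 4.14 times that at 0.5 mM in C7 and 1.07 times in C5. Slope-adjusted, the median was 0.11, with 1 higher and 1 lower at an unadjusted p under 0.05. In that fit 110 of all 13378 genes were higher and 190 lower at that level.

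NR4A2 (ENSGALG00000012538, chromosome 7, 36032926 to 36038300), an orphan nuclear receptor, had 1.42, 70.2, 5.88 and 13.8 CPM at 1 mM in C5, C7, C9 and C11, against 0.735, 5.14, 1.69 and 0.856 CPM at 0.5 mM. Its relative NR4A1 had 9.70, 115, 13.1 and 29.7 CPM at 1 mM, against 7.54, 17.3, 4.42 and 1.69 CPM at 0.5 mM. Both were higher in each line, by least in C5 and by most in C7 and C11. Their log2 fold changes were 2.73 (standard error 0.597, DESeq2 adjusted p = 0.000243) and 2.19 (standard error 0.629, DESeq2 adjusted p = 0.00616), and 1.41 and 0.93 in C5 and C9 alone. NR4A3 was at 1.88, and at 1.10 in C5 and C9 alone, which came from C9. It had 1678 counts in C9 at 1 mM against 402 at 0.5 mM, and 86 against 97 in C5. KLF10, a repressor induced by TGF beta, was higher in all 4 lines by 0.56 on the log2 scale (standard error 0.15, DESeq2 adjusted p = 0.0824), and by 0.29 in C5 and C9 alone.

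The classic members FOS and EGR1 differed between lines. FOS had 66.3, 369, 60.0 and 82.3 CPM at 1 mM, against 63.5, 33.3, 62.5 and 13.02 CPM at 0.5 mM. Its log2 fold change of 1.52 (standard error 0.726) came with C7 and C11, and was −0.032 in C5 and C9 alone. EGR1 had 80.7, 39.2, 67.2 and 71.1 CPM at 1 mM, against 84.7, 30.5, 124 and 48.7 CPM at 0.5 mM, 2 lines in each direction, with a log2 fold change of −0.51 in C5 and C9 alone and −0.57 slope-adjusted.

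Inflammatory genes were higher in all lines for a few members. Of 22 NF-kappa-B targets and inhibitors 5 were higher at an unadjusted p under 0.05 and none lower (7.09% and 8.87% of all genes), and 2 of 22 were higher with no overlap between the groups, against 1.59% of all genes. The median log2 fold change was 0.59, against 0.17 in C5 and C9 alone and 0.26 slope-adjusted. In the slope-adjusted fit 0 of 22 had an unadjusted p under 0.05. Of all 13378 genes, 110 were higher and 190 lower at that level there. IL6 (ENSGALG00000010915, chromosome 2, 30863310 to 30866004), the inflammatory cytokine, had 11.1, 124, 23.0 and 124 CPM at 1 mM, against 6.77, 5.86, 3.06 and 0.571 CPM at 0.5 mM. The groups did not overlap, and C11 was the lowest line at 0.5 mM and among the highest at 1 mM. The log2 fold change was 3.77 (standard error 1.18, edgeR adjusted p = 0.309, DESeq2 adjusted p = 0.032), with 2.72 to 4.82 in edgeR with 1 line left out. It was 1.76 in C5 and C9 alone and 2.32 slope-adjusted. DESeq2 without the block called it as well.

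NFKBIA, the inhibitor that NF-kappa-B induces against itself, had 213, 276, 128 and 297 CPM at 1 mM, against 169.6, 83.6, 59.6 and 86.7 CPM at 0.5 mM (log2 fold change 1.25, DESeq2 adjusted p = 0.00851). IL8L1, a chemokine gene of the interleukin 8 kind, had 39.9, 106, 12.9 and 436 CPM at 1 mM, against 37.0, 10.9, 3.34 and 16.3 CPM at 0.5 mM (log2 fold change 2.57, DESeq2 adjusted p = 0.0596). Both genes differed least in C5. The log2 fold changes in C5 and C9 alone were 0.68 for NFKBIA and 0.92 for IL8L1, and slope-adjusted 0.79 and 1.33. NFKBIE shares 315 of its 1171 exonic bases with SLC35B2, so its log2 fold change of 0.69, 0.17 in C5 and C9 alone, is uncertain.

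Macrophage markers were measured for the same libraries. Their summed level was 63.3 to 391 CPM at 1 mM and 71.3 to 125 CPM at 0.5 mM over 15 markers, none at 0 in all libraries. The summed level of the genes planned as thrombocyte and heterophil markers reached 245 CPM at 1 mM against at most 17.7 CPM at 0.5 mM. This came mostly from AVD, avidin, and GP9 and CATHL2 had no count. GP1BB and ITGA2B averaged 8.84 and 0.342 CPM at 1 mM, against 7.94 and 0.332 CPM at 0.5 mM. The sum therefore describes AVD and not these cell types. Most of the AVD level was in 1 library, C11 at 1 mM, with 8420 counts, against 65 in C11 at 0.5 mM. In C11, VSIG4, a macrophage receptor, had 655 counts at 1 mM, against 123 at 0.5 mM. The median log2 fold change of the 10 macrophage markers tested was 1.48 in C11 and between −0.015 and 0.51 in the other lines. C11 is also the line with the largest log2 fold changes of IL6 and IL8L1. Their part in the inflammatory genes was not tested.

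Interferon-stimulated genes split. IFIT5 (ENSGALG00000045085, chromosome 6, 20187816 to 20191669), an RNA-binding antiviral effector, had 0.711, 19.2, 2.69 and 3.45 CPM at 1 mM, against 0.0919, 3.86, 0.485 and 0.156 CPM at 0.5 mM. It was higher in every line by at least 2.30 on the log2 scale, and C7 had the highest level at both doses. It had 22, 853, 107 and 126 counts at 1 mM, against 3, 151, 19 and 6 at 0.5 mM. The log2 fold change was 2.94 (standard error 0.425, DESeq2 adjusted p = 7.4e-07), 2.55 in C5 and C9 alone and 2.78 with the length slope as a covariate. IFI6 was also called higher by DESeq2 (log2 fold change 1.84, adjusted p = 0.00789), and was at 1.11 in C5 and C9 alone. HELZ2, a helicase, was lower in all 4 lines (log2 fold change −0.72, slope-adjusted −0.34, DESeq2 adjusted p = 0.0766). In the whole list 4 of 21 were higher and 3 lower at an unadjusted p under 0.05 (7.09% and 8.87% of all genes). Its median was 0.30, and turned to −0.067 in C5 and C9 alone and −0.10 slope-adjusted.

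Among TGF beta and BMP genes 8 of 24 were higher and 4 lower at an unadjusted p under 0.05 (7.09% and 8.87% of all genes). Slope-adjusted none passed in either direction, where 110 of all 13378 genes passed as higher and 190 as lower. BMP2, the ligand, had 5.01, 37.8, 13.1 and 14.4 CPM at 1 mM, against 3.83, 5.73, 7.17 and 4.23 CPM at 0.5 mM (log2 fold change 1.45, DESeq2 adjusted p = 0.0289). ID2, an inhibitor of basic helix-loop-helix factors and a BMP target, had 8.60, 95.5, 23.8 and 39.8 CPM at 1 mM, against 7.85, 14.7, 11.1 and 6.51 CPM at 0.5 mM. ID4, of the same family, had a log2 fold change of 1.44, and both were called by DESeq2 (adjusted p = 0.0187 and 0.0182). SMAD3, which carries the TGF beta signal to the nucleus, was lower in all 4 lines (log2 fold change −0.52, DESeq2 adjusted p = 0.081). In C5 and C9 alone the log2 fold changes of BMP2, ID2 and ID4 were 0.61, 0.60 and 0.58.

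The Notch list had 4 of 16 higher and 1 lower at an unadjusted p under 0.05 (7.09% and 8.87% of all genes). Slope-adjusted it had 1 higher and 2 lower, where 110 of all 13378 genes were higher and 190 lower. HEY2, a repressor that Notch induces, had 10.5, 46.9, 31.6 and 28.0 CPM at 1 mM, against 8.03, 18.2, 11.8 and 6.25 CPM at 0.5 mM (log2 fold change 1.35, DESeq2 adjusted p = 0.00621). HEY1 and the ligand DLL1 were called higher too (log2 fold changes 1.11 and 1.39, DESeq2 adjusted p = 0.0428 and 0.0339). HEY2 was at 0.89 and HEY1 at 0.45 in C5 and C9 alone. The receptor NOTCH1 was lower in all 4 lines (log2 fold change −0.43, DESeq2 adjusted p = 0.103).

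Angiogenic genes had 4 of 17 higher and none lower at an unadjusted p under 0.05 (7.09% and 8.87% of all genes). Their median of 0.26 turned to −0.034 without C11. It was between 0.097 and 0.57 with another line left out, and 0.42 slope-adjusted. FLT4, the receptor of lymphatic growth factors, had 0.905, 26.5, 4.75 and 4.46 CPM at 1 mM, against 0.521, 5.65, 1.97 and 1.14 CPM at 0.5 mM (log2 fold change 1.62, DESeq2 adjusted p = 0.00174). APLNR, the apelin receptor, was called higher as well (log2 fold change 1.72, adjusted p = 0.0491). ANGPT2, a ligand of the TIE receptors, had 14.0, 5.06, 6.63 and 15.1 CPM at 1 mM, against 4.72, 6.62, 2.68 and 2.54 CPM at 0.5 mM, so it was lower in C7 and higher in the other 3 lines. FGF2, a growth factor, had a log2 fold change of 0.66 (DESeq2 adjusted p = 0.157). ANGPT2 was at 1.28 on the log2 scale over the 4 lines. FLT4, APLNR, ANGPT2 and FGF2 in C5 and C9 alone were at 1.05, 1.11, 1.41 and 0.29.

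**Figure D5:**
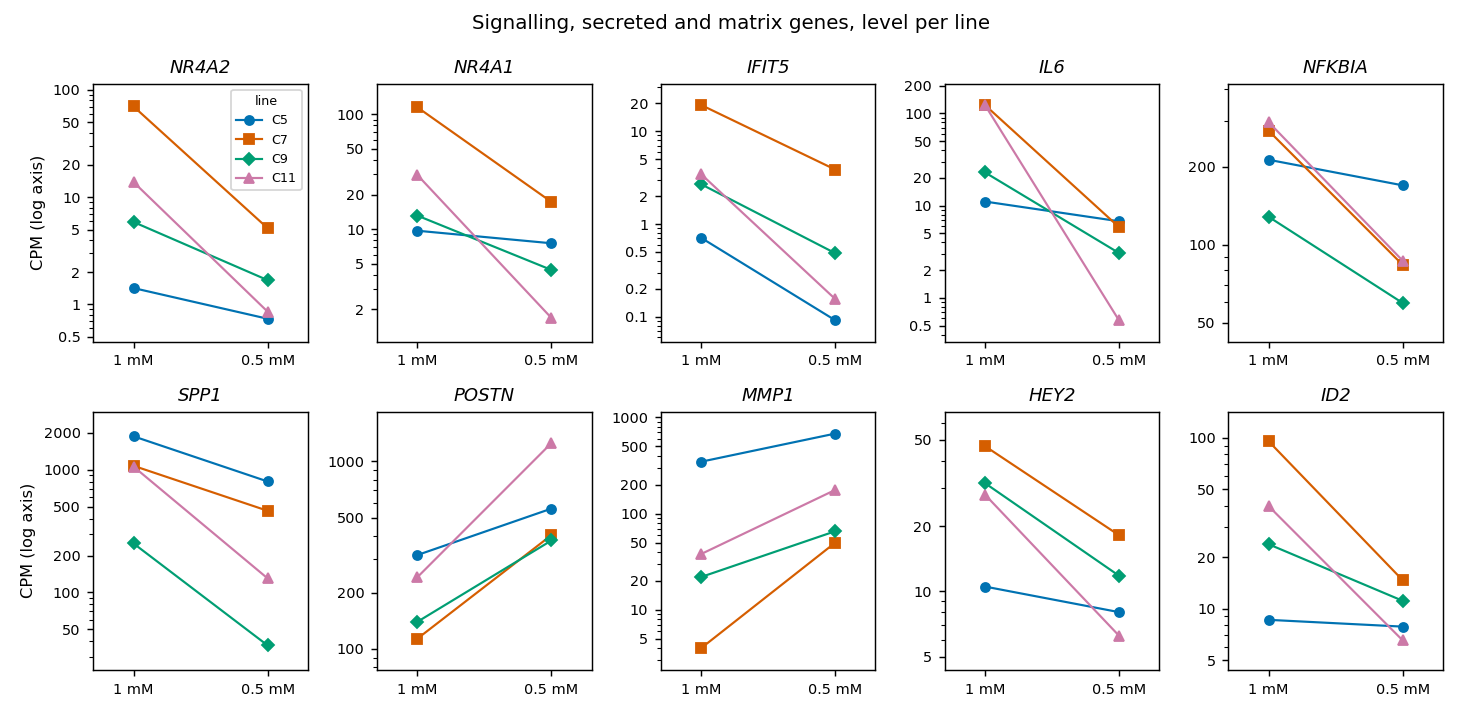
Level (y axis, CPM on a log axis) of 10 signalling, secreted and matrix genes at 1 mM and 0.5 mM, with 1 line joining the 2 libraries of each cell line. NR4A2, NR4A1, IFIT5, IL6, NFKBIA, SPP1, HEY2 and ID2 are higher at 1 mM in every line, and POSTN and MMP1 lower.

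Matrix genes differed by line. Of 28 collagens and matrix genes 5 were lower at an unadjusted p under 0.05 and none higher (8.87% and 7.09% of all genes), and 12 of 28 were lower in all 4 lines (13% of all genes). Their summed level at 1 mM was 0.895, 0.407 and 0.709 of that at 0.5 mM in C5, C7 and C9, and 1.49 times that level in C11, where 15 of 28 were lower. The list's median was −0.21, −1.86, −0.33 and −0.046 in C5, C7, C9 and C11. Over the 4 lines it was −0.55, without C7 −0.23, and with the length slope as a covariate −0.066.

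POSTN (ENSGALG00000017046, chromosome 1, 173372443 to 173406135), periostin, a secreted matrix protein of fibroblasts, had 317, 113, 139 and 241 CPM at 1 mM, against 560.3, 405, 379 and 1253 CPM at 0.5 mM. The groups did not overlap. Its log2 fold change was −1.61 (standard error 0.268, edgeR adjusted p = 0.309, DESeq2 adjusted p = 2.1e-05), −1.17 in C5 and C9 alone and −1.26 with the length slope as a covariate. LOX, which cross-links collagen, had 20.1, 5.24, 19.2 and 7.52 CPM at 1 mM, against 31.9, 91.1, 31.2 and 34.8 CPM at 0.5 mM, also with no overlap (log2 fold change −1.85, DESeq2 adjusted p = 0.0196). COL6A1 was called lower by DESeq2 (log2 fold change −1.37, adjusted p = 0.0105) and COL6A2 was not (log2 fold change −1.06, adjusted p = 0.0609), although both collagen VI chains were lower in all 4 lines. LOX, COL6A1 and COL6A2 in C5 and C9 alone were at −0.72, −0.79 and −0.60, and slope-adjusted at −0.53, −0.65 and −0.44.

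Among matrix metalloproteinases and their inhibitors 3 of 15 were lower at an unadjusted p under 0.05 and none higher (8.87% and 7.09% of all genes). Their median of −0.35 was −0.074 without C7 and −0.17 slope-adjusted. MMP1, an interstitial collagenase, had 346, 4.00, 21.9 and 38.0 CPM at 1 mM, against 678, 49.9, 65.6 and 176 CPM at 0.5 mM (log2 fold change −2.06, standard error 0.426, DESeq2 adjusted p = 0.000181). C5 had the highest level at both doses. MMP7, matrilysin, had 11.2, 0, 0.352 and 3.94 CPM at 1 mM, against 37.9, 35.3, 4.52 and 49.6 CPM at 0.5 mM, and its 0 in C7 allows up to 0.0705 CPM by counting error. Its log2 fold change was −3.98 (standard error 1.18, DESeq2 adjusted p = 0.0903). The inhibitor TIMP4 was lower in all 4 lines (log2 fold change −0.90, DESeq2 adjusted p = 0.127), as was MMP27 (−2.14, adjusted p = 0.365), which had no count in C7 at 1 mM. MMP1, MMP7, TIMP4 and MMP27 in C5 and C9 alone were at −1.30, −2.41, −0.53 and −0.95, and slope-adjusted at −1.22, −2.18, −0.57 and −0.59.

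Of 11 fibroblast markers 5 were lower and 1 higher at an unadjusted p under 0.05, against 8.87% and 7.09% of all genes (median log2 fold change −0.92, and −0.26 with the length slope as a covariate). The receptors PDGFRA and PDGFRB were called lower by DESeq2, with log2 fold changes of −2.29 and −1.66 (adjusted p = 0.0105 and 0.0072), which were −0.81 and −0.71 in C5 and C9 alone. PDGFRA had 10.6, 6.36, 110.2 and 10.4 CPM at 1 mM, against 19.6, 53.6, 176 and 290.4 CPM at 0.5 mM. C9 had by far the highest level at 1 mM, and C11 the highest at 0.5 mM. DCN, decorin, was lower in all 4 lines (log2 fold change −0.50, slope-adjusted −0.33). By mean CPM, THY1 and COL1A1 went the other way, THY1 with 845 CPM at 1 mM against 532 CPM at 0.5 mM. The fibroblast markers include POSTN and the collagen genes COL1A1, COL1A2 and COL3A1, so they are not a separate set from the matrix genes. Their part in the matrix genes was not tested.

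YAP and TEAD genes moved both ways, with 6 of 18 higher and 4 lower at an unadjusted p under 0.05 (7.09% and 8.87% of all genes). Slope-adjusted 1 was higher and none lower, where 110 of all 13378 genes were higher and 190 lower. The coactivators YAP1 and WWTR1 were lower in all 4 lines (log2 fold changes −1.35 and −0.81, DESeq2 adjusted p = 0.0115 and 0.0562), while the target CYR61, a matricellular protein, was higher (log2 fold change 1.77, DESeq2 adjusted p = 0.0122). YAP1, WWTR1 and CYR61 in C5 and C9 alone were at −0.64, −0.42 and 0.62, and slope-adjusted at −0.65, −0.38 and 0.73. F3, tissue factor, had 16.3, 9.73, 1.03 and 55.8 CPM at 1 mM, against 10.8, 3.43, 0.281 and 18.7 CPM at 0.5 mM (log2 fold change 1.35, DESeq2 adjusted p = 0.0026). Of 23 heat shock genes 4 were higher at an unadjusted p under 0.05, against 7.09% of all genes, HSPA2, BAG3, DNAJB1 and DNAJA4, with log2 fold changes of 1.08, 0.79, 0.78 and 0.49. DESeq2 called none of these 4, and C7 had the largest difference in each. They were at 0.50, 0.32, 0.33 and 0.28 in C5 and C9 alone.

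Cell cycle lists differed by line. For 44 genes of mitosis and G2/M the median log2 fold change was −0.29, and the medians by line were −0.080, −0.96, −0.18 and 0.089. At an unadjusted p under 0.05, 2 were higher and 4 lower, against 7.09% and 8.87% of all genes. For 44 genes of DNA replication and S phase the median was −0.14, with 1 higher and 2 lower, and −0.49 in C7. These medians were −0.020 and 0.11 with the length slope as a covariate. TK1, thymidine kinase, had a log2 fold change of 0.17 (standard error 0.15), and 0.29 in C5 and C9 alone.

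Genes that moved 1 way in every line were ranked by unadjusted p, and the first 10 higher and first 10 lower were taken. None was called by edgeR, and DESeq2 with the block called each of the 20. The genes were picked from the same libraries under the same block, so these DESeq2 calls are no separate support. The 10 higher genes included IFIT5, F3 and FLT4, described above. SPP1 (ENSGALG00000010926, chromosome 4, 45655850 to 45659023), osteopontin, a secreted phosphoprotein, had 1875, 1078, 251 and 1062 CPM at 1 mM, against 803, 463, 37.0 and 130.2 CPM at 0.5 mM. It was higher by at least 1.22 on the log2 scale in every line (log2 fold change 2.06, standard error 0.383, DESeq2 adjusted p = 2.1e-05), and by 2.31 with the length slope as a covariate. SPP1 shares 530 of its 1279 exonic bases with PKD2, a cation channel gene, and reads there are counted for both. The values of SPP1 and of PKD2 (log2 fold change 1.44) are therefore both uncertain.

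PENK, the precursor of enkephalin peptides, had 5.56, 9.19, 0.678 and 4.08 CPM at 1 mM, against 1.32, 0.690, 0.204 and 1.17 CPM at 0.5 mM (log2 fold change 2.36, DESeq2 adjusted p = 0.000335). GSTA3, a glutathione transferase, had 16.2, 6.45, 5.07 and 44.0 CPM at 1 mM, against 7.57, 1.10, 1.63 and 21.0 CPM at 0.5 mM (log2 fold change 1.56, DESeq2 adjusted p = 0.00115). PARD6B, a cell polarity protein, and MAP7, which binds microtubules, had log2 fold changes of 1.80 and 1.64. Their levels were low in C5, with 0.226 and 0.388 CPM at 1 mM. CWH43 and SEC14L5 completed the 10, at 1.02 and 1.28 on the log2 scale.

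Among the 10 lower genes were HMGCS1, ACACA, AACS and POSTN. ALK (ENSGALG00000009034, chromosome 3, 9091386 to 9110192), a receptor tyrosine kinase, had 5.33, 1.06, 2.08 and 2.84 CPM at 1 mM, against 12.7, 2.97, 7.99 and 9.23 CPM at 0.5 mM. Its log2 fold changes by line lay between −1.93 and −1.24, and it was −1.58 over the 4 lines (standard error 0.229, edgeR adjusted p = 0.309, DESeq2 adjusted p = 7.79e-06). In C5 and C9 alone it was −1.61 and with the length slope as a covariate −1.70. MGAT3, a glycosyltransferase of N-glycans, had 170.2, 108, 96.7 and 142 CPM at 1 mM, against 226, 217, 213 and 332 CPM at 0.5 mM, with no overlap (log2 fold change −0.94, DESeq2 adjusted p = 0.00404). HIF3A, a hypoxia-inducible factor subunit, PLAU, urokinase, and CHRDL2, a BMP antagonist, had log2 fold changes of −1.22, −0.70 and −0.75.

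Genes whose dose series had been seen in earlier results of these data were followed as well. RBM3, a cold-inducible RNA-binding protein, had 178, 199.8, 215 and 169 CPM at 1 mM, against 234, 232, 258 and 256 CPM at 0.5 mM, with no overlap (log2 fold change −0.36, standard error 0.133, DESeq2 adjusted p = 0.207). NRIP3 was higher with no overlap (log2 fold change 1.58, DESeq2 adjusted p = 0.0129), and FGF18, a growth factor, was higher in all 4 lines (log2 fold change 2.33, DESeq2 adjusted p = 0.0117). C7 had the highest level at 1 mM for both, and FGF18 was at 0.97 in C5 and C9 alone. TNFRSF18 and SLC6A17 were higher in 3 of 4 lines (log2 fold changes 1.08 and 1.64, SLC6A17 at 0.66 in C5 and C9 alone, DESeq2 adjusted p = 0.153 and 0.0525), and MCEE was lower in all 4 (log2 fold change −0.48, DESeq2 adjusted p = 0.26). CIRBP was not analysed here.

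The step was then set beside the next one, from 1 to 2 mM, in 1 fit over 12 libraries. Both steps share the 1 mM libraries, so a chance low value there lowers the first step and raises the second. For the next step edgeR called 0 of 13826 genes, with 407 at an unadjusted p under 0.05, 1.28% of the genes tested higher and 1.66% lower at 2 mM. For the difference between the steps it called 0 as well, with 289 at an unadjusted p under 0.05 and a smallest adjusted p of 0.828. DESeq2 was not run for this fit.

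The summed level of the sterol genes was lower at 1 mM than at both 0.5 and 2 mM in 3 of the 4 lines. The summed level of the 19 genes at 0.5, 1 and 2 mM was 5261, 4448 and 7108 CPM in C5, 2769, 2454 and 7529 CPM in C7, 4467, 1528 and 3038 CPM in C9, and 5728, 2404 and 2014 CPM in C11. C11 alone stayed low, with 0 of 19 genes higher at 2 than at 1 mM, against 16 in C5, 19 in C7 and 18 in C9. For 10 of 19 genes the difference between the steps had an unadjusted p under 0.05 with the next step above this one. The same held for 5 of 12 genes of the fatty acid list and for 1.11% of all genes. Both lists were low at 1 mM in the first step, and those libraries enter the difference as well. These counts therefore cannot test a turn. HMGCS1 at 2 mM had 465, 219, 145 and 52.9 CPM in C5, C7, C9 and C11, and its difference between the steps was 3.17 on the log2 scale (standard error 0.963, edgeR adjusted p = 0.828). The length slopes at 2 mM were 0.22, −0.23, 0.14 and −0.13 in these lines, so C5 changed sign there.

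A few genes differed in 1 direction at the next step. POSTN had 188, 42.4, 45.6 and 153 CPM at 2 mM, below 1 mM in every line (next step log2 fold change −1.09, standard error 0.291, edgeR adjusted p = 0.936). RBM3 and MCEE were lower at 2 than at 1 mM in all 4 lines, by −0.51 and −1.10 on the log2 scale. ANGPT2 was higher at 2 than at 1 mM in all 4 lines, by 1.99, although C7 was lower in the first step, and had 100.4, 6.45, 53.4 and 24.3 CPM at 2 mM. The mitochondrial transcripts had a median next step of −0.027, lower in 12 of 13 genes in C5 and higher in at least 12 of 13 in each other line.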

How the data were processed

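RNA was sequenced from 16 libraries, 1 per line and dose, of which the 4 at 1 mM and the 4 at 0.5 mM metformin enter the comparison. The authors deposited raw read counts per gene with the exonic length of each gene in bases. Per the methods of the study and the submitters' processing notes, single-end reads of stranded mRNA libraries were aligned to GRCg6a with HISAT2 2.1.0 and counted by strand with featureCounts, and a read over several genes counted for each of them. The deposited comparisons of each dose with untreated cells hold fold changes and p-values and were not used. Symbols come from the deposited count table, in which 10393 of 23910 genes have none.

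Counts were tested with edgeR 4.0.16 (R 4.3.3, limma 3.58.1), TMM normalization, the quasi-likelihood test and Benjamini-Hochberg adjustment, with the line as a block. A call needs p under 0.01 and adjusted p under 0.05. Log2 fold changes over several lines are edgeR estimates, also beside a DESeq2 adjusted p, unless a value is said to be from DESeq2. A DESeq2 adjusted p belongs to DESeq2's own estimate, which for IFIT5 was 2.97, against 2.94 in edgeR. Standard errors were calculated back from edgeR's F statistic, as the absolute log2 fold change divided by the square root of F. Genes with low counts were removed with filterByExpr by dose. CPM, the scaled counts, use the TMM library sizes. The deviations of a line's libraries from the dose means correlated with r = 0.844 for C5, 0.383 for C7, 0.757 for C9 and 0.111 for C11, and each line comes from 1 hen, so the libraries were treated as paired. The length slope was taken over genes whose mean count reached 100. Alternatives were DESeq2 1.42.0, no block, other scaling and filters, pairs of lines, lines left out and the length slope as a covariate. DESeq2 with lines left out and with the covariate was added after the data were seen.

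Named were the 10 genes per direction with the smallest p-values among those with a symbol, a mean of at least 1 CPM and 1 direction in all 4 lines, up to 4 members of each list described with the smallest p-values, and a set followed from earlier results. A few genes that this rule names are not reported here, though counts over lists include them. The comparison's members, the gene lists and this set were chosen with earlier results of these data known. Limits from a count of 0 use 3 counts and cover counting error only. The edgeR procedure was run on simulated counts with known changes, equal in all lines and without a length slope tied to the dose. That run therefore does not show how the procedure behaves where the difference varies by line or with length.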

Additional observations from a re-analysis of the deposited data

Results flagged for a closer look

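For 86 named genes, the highest or lowest of the 4 lines stood apart from the other 3 in 26 of 172 gene and dose groups by Dixon's test. Its chance rate of about 1 in 20 groups holds for normally distributed values. The test was run on CPM without logs, so the count cannot be read as an excess. Of the 26 groups, 10 were the library of C7 at 1 mM and 8 that of C7 at 0.5 mM. Genes measured in the same library are not independent.

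C7 at 1 mM was highest for HSPA2 (7447 CPM), BAG3 (749 CPM), FOS (369 CPM), DNAJB1 (272 CPM), FLT4 (26.5 CPM), FGF18 (19.3 CPM), IFIT5 (19.2 CPM), IFI6 (12.2 CPM), NRIP3 (6.85 CPM) and APLNR (6.34 CPM). C7 at 0.5 mM was highest for HSPA2 (1664 CPM), BAG3 (227 CPM), LOX (91.1 CPM), DLL1 (9.77 CPM), IFIT5 (3.86 CPM), IFI6 (2.99 CPM) and TNFRSF18 (2.66 CPM), and lowest for TK1 (64.2 CPM). HSPA2, BAG3, IFIT5 and IFI6 were thus apart in C7 at both doses. C7 is one of the lines whose length slope turned between the doses, and the part of that slope in these levels was not tested.

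C5 at 1 mM was highest for MMP1 (346 CPM), CHRDL2 (147 CPM) and INSIG1 (129.8 CPM), and C5 at 0.5 mM for CHRDL2 (245 CPM). C9 at 1 mM was highest for PDGFRB (177 CPM) and PDGFRA (110.2 CPM). C11 was highest for TNFRSF18 at 1 mM (4.90 CPM) and for MGAT3 at 0.5 mM (332 CPM).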

How the results depend on the processing

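The number of genes called between 1 and 0.5 mM was 0 with edgeR and the line as a block. It was also 0 without the block (no pairing, 651 at an unadjusted p under 0.05), with DESeq2's size factors in edgeR, with a filter of 1 CPM, with 12 libraries, with the length slope as a covariate (300 at an unadjusted p under 0.05) and with each line left out (666 to 3018). Without a count filter it was 1, S100A12. In C5 and C9 alone 159 were called and in C7 and C11 alone 689, with 26 shared, 16.4% and 3.77% of the 2 sets. DESeq2 called 434 with the block, 6 without it, 24 to 1444 with a line left out (801 without C5, 60 without C7) and 9 with the length slope.

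For 86 named genes, 26 of 2322 values turned their sign, in 8 genes, of which edgeR called none with the block over all 4 lines. FOS had log2 fold changes of −0.11 with the length slope as a covariate, −0.14 in DESeq2 with it and −0.032 in C5 and C9 alone. EGR1, near 0 with the block, gave −0.15 without it, −0.16 in DESeq2 without it, −0.0078 without a filter, −0.053 with 12 libraries, −0.57 with the length slope, −0.60 in DESeq2 with it and −0.51 in C5 and C9 alone. With a line left out EGR1 gave −0.18 to 0.31 in edgeR (−0.14 without C7), and −0.15 and −0.19 in DESeq2 without C7 and C11. Without the block and with 1 library left out, EGR1 gave −0.41, −0.30, −0.29, −0.20, −0.16 and −0.086, MT-CO1 −0.065, CHRDL2 1.16, NOTCH1 0.038, MMP1 0.026, COL6A2 0.17 and TK1 −0.0050. The causes were not tested. In the pairing check, C11 at 1 mM correlated more closely with C7 at 0.5 mM (0.159) than with its own library (0.111).

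The main limits are 4 lines with 1 library per dose, a length slope that turns with the dose in C7 and C11, and 2 tools that differ in their calls. Without C7 and C11 only 2 lines remain. The medians of the cholesterol, fatty acid and mitochondrial lists kept their direction in the edgeR alternatives in which they were taken. These were no block, DESeq2's size factors, the length slope as a covariate, each line left out, and the 2 pairs of lines. List medians were not taken in DESeq2, with 12 libraries, with other filters or with single libraries left out.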

Other observations

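Muscle markers, a list of smooth and skeletal muscle genes not described so far, had 8 of 9 estimates higher at 1 mM. Of 9 muscle markers tested, 3 were higher at an unadjusted p under 0.05 and none lower (7.09% and 8.87% of all genes). Slope-adjusted none passed, where 110 of all 13378 genes passed as higher and 190 as lower. The medians by line were 0.19, 1.41, 0.060 and 2.65 in C5, C7, C9 and C11. CNN1, calponin, an actin-binding protein of smooth muscle, had 5.27, 43.7, 5.82 and 13.1 CPM at 1 mM in C5, C7, C9 and C11, against 4.81, 6.75, 2.04 and 0.804 CPM at 0.5 mM (log2 fold change 2.08, standard error 0.651, edgeR adjusted p = 0.309, DESeq2 adjusted p = 0.0142). MYOCD, a coactivator of smooth muscle genes, was also called higher by DESeq2 (log2 fold change 1.28, adjusted p = 0.0109). Slope-adjusted, the median of the list was 0.27, against 1.03 unadjusted, and CNN1 and MYOCD were at 1.06 and 0.78.

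SQSTM1, an autophagy receptor, had 223, 2977, 503 and 1350.3 CPM at 1 mM, against 178, 536, 291 and 295 CPM at 0.5 mM, higher in all 4 lines (log2 fold change 1.46, DESeq2 adjusted p = 0.0196). MTHFD1L, a mitochondrial one-carbon enzyme, had 8.34, 7.01, 39.4 and 7.58 CPM at 1 mM, against 14.3, 37.6, 45.4 and 35.2 CPM at 0.5 mM, lower in all 4 lines (log2 fold change −1.40, DESeq2 adjusted p = 0.0233). The log2 fold changes were 0.56 for SQSTM1 and −0.43 for MTHFD1L with the length slope as a covariate.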
